A study of Mus musculus with 4 samples.

Results

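Signals on arrays of mouse embryonic stem cells are described for 10 marker genes of the primitive streak and early mesoderm: Mixl1, Eomes, Gsc, Evx1, Lhx1, Cdx1, Mesp1, Gata2, Kdr and Cer1. A gene was taken when at least 1 probe set of the array carried its symbol and no other in the platform annotation. All 10 genes had such a probe set, and 14 probe sets in all represented them, out of 18193 genes and 34945 probe sets with a single symbol. The cells were of the mouse ES cell line CGR8 (ES, embryonic stem), grown on gelatin in medium with serum replacement. Of 4 Affymetrix arrays, 2 held total RNA of cells kept for 2 days in medium with 1000 U/ml of the cytokine leukemia inhibitory factor (LIF), and the other 2 that of cells in medium that lacked it. All cells had been kept in LIF beforehand and differed in no other treatment that the labels name. The arrays of each group carry the numbers 1 and 2, and the labels do not say that they came from separate cultures, so p-values speak of the spread between arrays alone, and that spread may be technical.

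The primitive streak is the band of cells at the posterior side of the gastrulating embryo through which epiblast cells leave to form mesoderm and definitive endoderm. Nodal, Wnt and Bmp ligands induce it, and the T-box factors T and Eomes with the homeobox factors Mixl1, Evx1, Gsc and Lhx1 mark its parts. Mesp1 then marks the earliest mesoderm, Kdr and Gata2 the mesoderm that gives blood and vessels, Cdx1 the posterior side, and Cer1 the endoderm and anterior side, where its product blocks Nodal and other ligands. LIF keeps ES cells undifferentiated by way of Stat3, and cells that lose it may leave the naive state for an epiblast-like state that comes before the streak.

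The 4 arrays are those of ES cells by their markers. All 14 genes of a list of ES cell markers were above background on all 4 arrays, and Pou5f1, which encodes Oct4, gave signals of 9035 and 8246 with LIF, against 7212 and 10632 without it. Socs3, a direct target of LIF signalling, read 4827 and 6198 with LIF, against 360.0 and 261 without it (log2 change -4.16, limma, adjusted p = 0.0046). A split by array number ran across the groups, since the 18S ribosomal RNA control read 462 and 451 for number 1, but 5150.4 and 2990.4 for number 2. Changes within each number are therefore given beside the members' values. In bulk RNA a few cells with many copies and many cells with few copies of a transcript cannot be told apart.

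Promoter sequences from RefSeq were at hand for 8 of the 10 genes, and 3 are shown, those of the member with the highest signal (Eomes), of a mesoderm gene that Eomes activates in the mouse (Mesp1) and of the member that was lowest without LIF relative to LIF (Gsc). Each is 240 bases that end 11 bases before the start site of the table. Capitals mark matches on either strand to the TCF/LEF core CTTTGA, the T-box half-site TCACACC, the FOXH1 motif AATNNACA or the paired homeodomain motif TAATNNNATTA, and no motif match overlapped that of another motif.
Eomes (GRCm38.p6, chr9:118477939-118478178, plus strand): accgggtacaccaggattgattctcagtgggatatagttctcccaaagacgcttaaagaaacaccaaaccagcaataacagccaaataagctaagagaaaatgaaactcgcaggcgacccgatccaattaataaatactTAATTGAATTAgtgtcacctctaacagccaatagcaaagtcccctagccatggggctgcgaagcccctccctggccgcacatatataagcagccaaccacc
Mesp1 (GRCm38.p6, chr7:79793601-79793840, minus strand): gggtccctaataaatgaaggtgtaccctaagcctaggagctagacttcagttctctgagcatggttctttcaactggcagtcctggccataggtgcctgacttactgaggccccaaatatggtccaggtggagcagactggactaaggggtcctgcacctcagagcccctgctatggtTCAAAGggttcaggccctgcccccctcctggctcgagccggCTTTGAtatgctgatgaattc
Gsc (GRCm38.p6, chr12:104473247-104473486, minus strand): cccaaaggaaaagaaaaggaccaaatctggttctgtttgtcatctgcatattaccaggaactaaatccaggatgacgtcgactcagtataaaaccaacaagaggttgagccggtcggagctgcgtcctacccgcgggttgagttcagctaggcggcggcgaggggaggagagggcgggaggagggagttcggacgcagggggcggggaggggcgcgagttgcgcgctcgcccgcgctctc
The Eomes window held the homeodomain motif, a palindrome, from 111 to 101 bases before the start site, and 0.448% of 32851 promoter windows of this length held one. The Mesp1 window held the TCF/LEF core on the minus strand from 72 to 67 bases and on the plus strand from 31 to 26 bases before the start site, a motif in 13.4% of all windows. The Gsc window held none of the 4 motifs, of which the T-box half-site was in 3.22% and the FOXH1 motif in 10.7% of all windows. The windows of Evx1, Lhx1, Kdr and Cer1 and both windows of Gata2 held none either. A match describes letters and shows no binding.

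What a signal can show depends on how far it stands above unspecific binding. The values were MAS5 signals on a linear scale with no detection calls. Background was therefore described with 80 probe sets of olfactory and vomeronasal receptor genes, which ES cells are not expected to use. Their 95th percentile was 30.6 and 42.5 on arrays 1 and 2 with LIF and 80.0 and 49.4 on arrays 1 and 2 without LIF, so the bar was highest on array 1 without LIF. With 80 probe sets that percentile rests on a few of the brightest. By the brightest probe set of each of the 10 members, 2 genes (Eomes and Gata2) stood above this level on all 4 arrays and 3 (Kdr, Mesp1 and Mixl1) on 3 of 4, each falling short on array 1 without LIF. The other 5 (Lhx1, Cer1, Gsc, Evx1 and Cdx1) were below it on all 4 arrays, although the other Lhx1 probe set passed it on array 2 without LIF. Against the 75th percentile of the same receptors only Evx1 and Cdx1 were below on all 4 arrays.

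**Figure D1:**
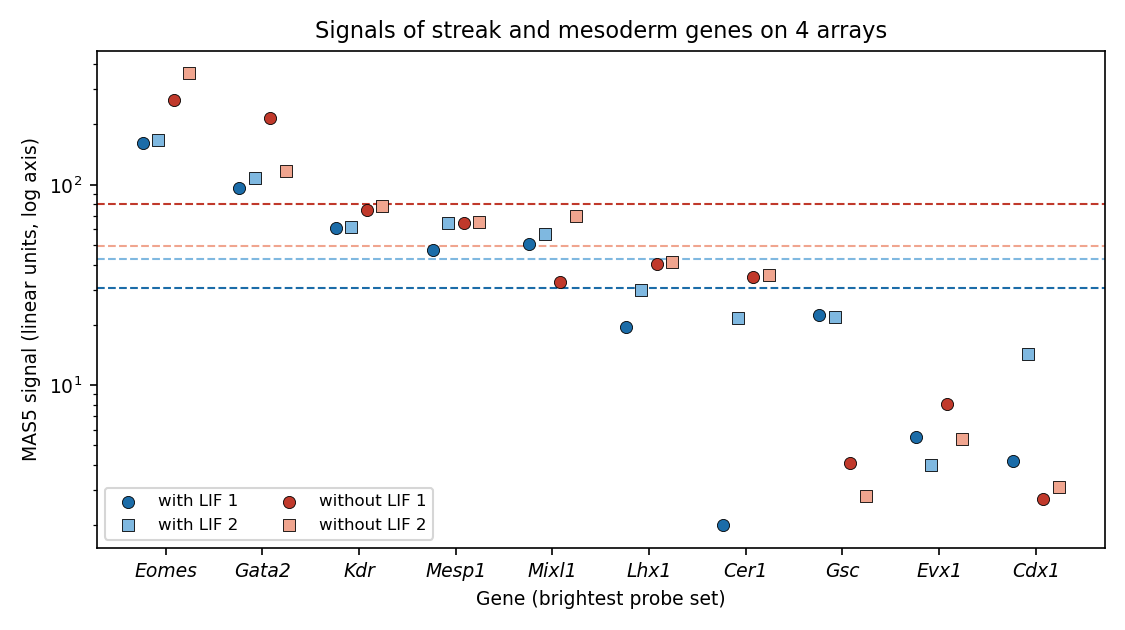
MAS5 signal (log axis) of the brightest probe set of each gene on the 4 arrays, with genes ordered by mean signal; the dashed lines are the 95th percentile of 80 olfactory and vomeronasal receptor probe sets on the array of the same colour (30.6, 42.5, 80.0 and 49.4). Eomes and Gata2 lie above all 4 lines, while Lhx1, Cer1, Gsc, Evx1 and Cdx1 lie under the line of their own array everywhere.

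The background itself differed between the groups. The 80 receptor probe sets had a median log2 change of 0.63 (without minus with LIF), 0.82 within number 1 and 0.41 within number 2. Both arrays without LIF lay above both with LIF for 24 of them (30%), and below for 2 (2.5%). Over all probe sets without controls these shares were 24.6% and 11.9%, so the share above was near the general one. Over all 18193 genes the median log2 change was 0.12, and it was 0.02 with quantile normalization and -0.17 with a common median per array. The part of this general difference in the members' changes was not tested, and a member's change is to be read against it.

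None of the 10 genes passed the test across all genes. Of the 6 members above the filter (a mean log2 signal over 4.51, a signal of 22.9), 0 passed limma's test at an adjusted p of 0.05, a call made for 0.145% of 14445 tested genes. An unadjusted p of 0.05 or less was found for 1 of the 6, Eomes, and for 10.9% of tested genes. The 6 had a median log2 change of 0.48, beside 0.09 for all tested genes. By mean log2 signal 7 of the 10 members were on the higher side without LIF, as were 60.5% of all genes. The median over the 10 was 0.41, beside 0.12 over all genes and 0.63 over the receptor probe sets. It was -0.015 with quantile normalization (0.016 over all genes) and 0.11 with a common median (-0.17 over all genes). Over all 10 members the groups of arrays did not overlap for 5 genes that read higher without LIF (Eomes, Lhx1, Gata2, Kdr and Cer1), a pattern of 27.1% of all genes, and for 2 that read lower (Gsc and Cdx1), a pattern of 14.0%. With quantile normalization Eomes was apart upward and the same 2 genes downward, patterns of 20.4% and 17.97% of all genes in that setting. With a common median Evx1 was apart upward and the same 2 downward, patterns of 13.7% and 21.1%. A difference of at least 2-fold with groups apart was met by 3 members, Cer1 up and Gsc and Cdx1 down, and all 3 lay below background throughout. Leaving out array 1 with LIF took Cer1 under 2-fold (log2 change 0.69), and leaving out array 2 with LIF did so for Cdx1 (-0.54). It was met by 10.6% of all genes upward and 3.29% downward.

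Eomes is a T-box factor of the streak, the definitive endoderm and the trophoblast. Its brighter probe set read 161 and 167 with LIF, against 264 and 359.9 without it. Both arrays without LIF lay above both with LIF, and the latter differed by little. The group means were 164 ± 4.03 and 312 ± 67.8 (SD, n = 2), a log2 change of 0.91 (1.88-fold; SE 0.30; 95% interval 0.20 to 1.62; limma, unadjusted p = 0.019, adjusted p = 0.33). The change was 0.71 within number 1 and 1.11 within number 2. The dimmer probe set of Eomes read 78.4 and 164 with LIF, against 100.3 and 218 without it. The arrays numbered 2 stood above those numbered 1, and the groups overlapped (log2 change 0.38, SE 0.58). Within number 1 its change was 0.36 and within number 2 it was 0.41. As a multiple of the background level of its own array the brighter probe set stood at 5.26 and 3.93 with LIF, against at 3.30 and 7.29 without it, and on that scale the groups overlapped.

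**Figure D2:**
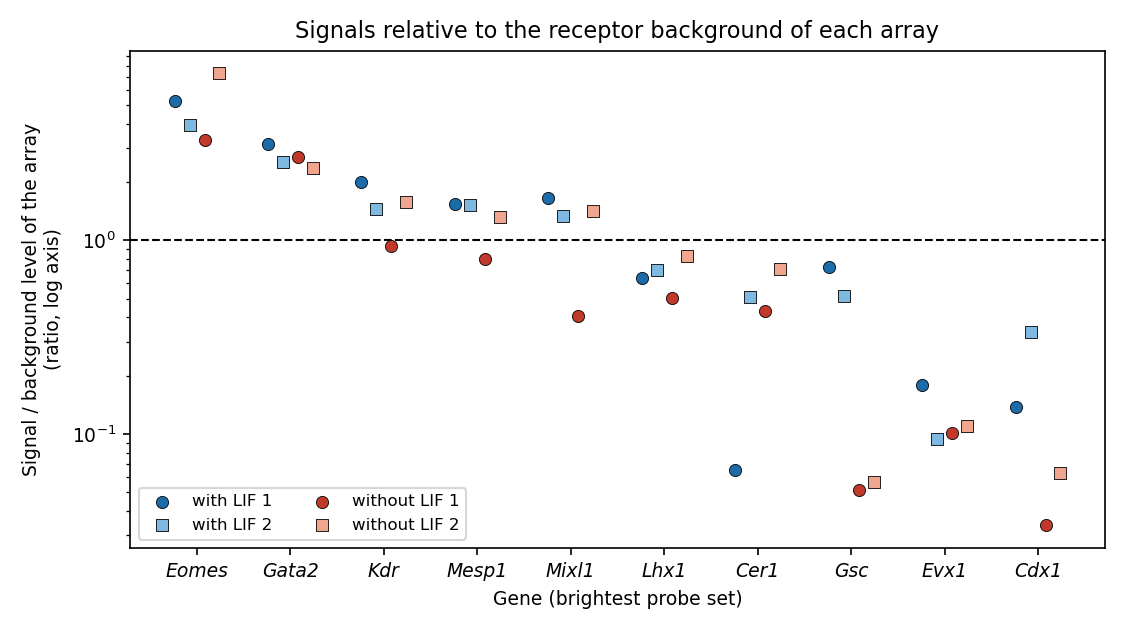
Signal of the brightest probe set of each gene divided by the 95th percentile of the receptor probe sets on the same array (log axis; the dashed line marks equality with background). Eomes stands at 3.30 to 7.29 times that level with overlapping groups, and array 1 without LIF is the array on which Kdr, Mesp1 and Mixl1 fall under the line.

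Mixl1, a paired-type homeobox factor of the streak that acts in mesoderm and endoderm formation, showed no direction. It read 50.5 and 56.6 with LIF, against 32.6 and 69.8 without it, so the arrays with LIF lay between those without. The log2 change was -0.16 (SE 0.60; 95% interval -1.58 to 1.25; limma, adjusted p = 0.95), -0.63 within number 1 and 0.30 within number 2. Leaving out array 1 without LIF turned it to 0.38, and leaving out array 2 without LIF took it to -0.71.

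Lhx1, a LIM homeobox factor of the anterior streak and the visceral endoderm, read 19.6 and 29.8 with LIF, against 40.3 and 41.2 without it. The groups did not overlap, but every value was under the background level of its array, from 0.504 to 0.835 times that level. The log2 change was 0.75 (SE 0.68, 95% interval -0.85 to 2.36, limma, adjusted p = 0.75), and 0.45 without array 1 with LIF. It was 1.04 within number 1 and 0.47 within number 2. The other Lhx1 probe set read 5.4 and 17.1 with LIF, against 6.9 and 62.1 without it, and only the last of these was above background.

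Gsc, a homeobox factor of the organiser at the tip of the streak, read 22.4 and 21.8 with LIF, against 4.1 and 2.8 without it. Both arrays without LIF were lower, by a log2 change of -2.45 within number 1 and -2.96 within number 2, and the groups did not overlap. The gene lay below the filter and below background on all 4 arrays, at 0.732 and 0.513 times that level with LIF and 0.051 and 0.057 times without it, so the size of its change is not known. The fit without the filter gave a log2 change of -2.71 between these values below background (SE 0.98; limma, unadjusted p = 0.028, adjusted p = 0.42), and a pseudocount of 14.3 brought it to -1.04. Among 4578 probe sets of like mean signal (within 0.5 on the log2 scale) the median difference between replicate arrays was 1.52 with LIF and 1.42 without LIF.

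Evx1, a homeobox factor of the posterior streak, read 5.5 and 4.0 with LIF, against 8.1 and 5.4 without it, and the groups overlapped. The log2 change was 0.50, with 0.56 within number 1 and 0.43 within number 2. These values were 0.094 to 0.180 times the background level, so whether Evx1 differed is not known. Cdx1, a caudal-type homeobox factor that patterns the posterior body, read 4.2 and 14.3 with LIF, against 2.7 and 3.1 without it. Both arrays without LIF lay lower, and all 4 values were at most 0.337 times background. Within number 1 the log2 change was -0.64, and within number 2 it was -2.21. The arrays of Cdx1 with LIF differed from each other by 1.77 on the log2 scale, more than the change of -1.42 between the groups, which was -0.54 without array 2 with LIF and -2.31 without array 1 with LIF.

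Mesp1, a basic helix-loop-helix factor of the first mesoderm, read 47.1 and 64.5 with LIF, against 64.3 and 65.5 without it. Array 2 with LIF lay between the arrays without LIF, so the groups overlapped. The log2 change was 0.24 (SE 0.49; 95% interval -0.93 to 1.40; limma, adjusted p = 0.90), with 0.45 and 0.02 within the numbers. It was 0.0089 without array 1 with LIF, and it turned to -0.088 with quantile normalization and to -0.058 with a common median.

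Gata2, a zinc finger factor of blood-forming mesoderm that is also used in trophoblast, read 96.6 and 108 with LIF, against 215 and 117 without it in its brighter probe set. The groups did not overlap, and the difference came mostly from array 1 without LIF, with changes of 1.15 and 0.11 within the arrays numbered 1 and 2. The log2 change was 0.63 (1.55-fold; SE 0.42; 95% interval -0.36 to 1.62; limma, adjusted p = 0.64), and leaving out array 1 without LIF brought it to 0.19. Relative to the background level of its array the brighter probe set stood at 3.16 and 2.54 with LIF, against 2.69 and 2.36 without it. On that scale the groups overlapped. The dimmer probe set read 82.6 and 32.6 with LIF, against 76.4 and 32.8 without it. Here the arrays paired by number and not by LIF (log2 change -0.05, SE 0.79).

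Kdr, the Vegf receptor of early mesoderm and endothelium, read 61.1 and 61.8 with LIF, against 75 and 78.3 without it, with means of 61.5 ± 0.495 and 76.7 ± 2.33 (SD, n = 2). The groups did not overlap, and the log2 change was 0.32 (1.25-fold; SE 0.45; 95% interval -0.74 to 1.38; limma, adjusted p = 0.85), with 0.30 and 0.34 within the numbers. Among 5135 probe sets of like signal the median difference between replicates was 0.54 with LIF and 0.69 without LIF, wider than the 0.02 and 0.06 of Kdr, and the moderated SE takes account of those other genes. The change was 0.01 with quantile normalization and 0.03 with a common median.

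Cer1 encodes a secreted antagonist of Nodal, Bmp and Wnt ligands. Its brighter probe set read 2.0 and 21.7 with LIF, against 34.5 and 35.3 without it, all below background. Array 1 with LIF stood apart from the other 3, so that the change was 4.11 within number 1 and 0.70 within number 2. Without array 1 with LIF the change was 0.69, against 2.41 with it (SE 1.25 without the filter; limma, adjusted p = 0.59). The dimmer probe set read 2.9 and 2.5 with LIF, against 6.1 and 18.5 without it, also with groups apart and also below background, and its larger difference was within the arrays numbered 2 (2.89 against 1.07).

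**Figure D3:**
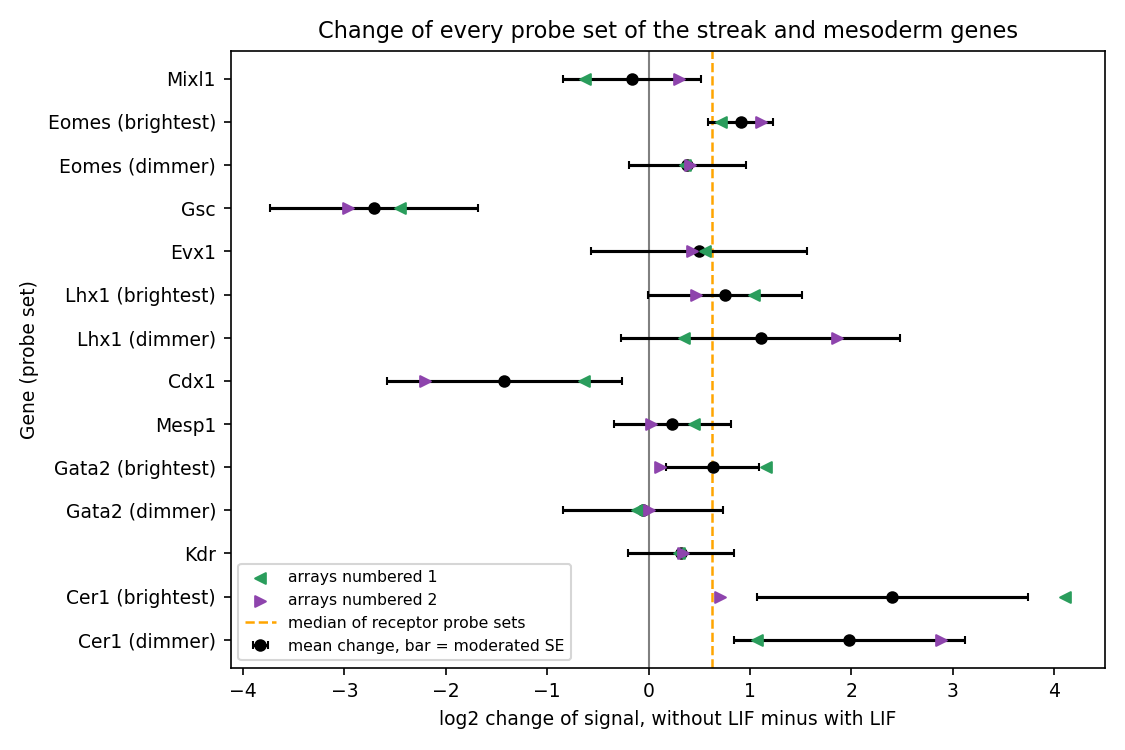
Log2 change of signal (without minus with LIF) of all 14 probe sets; black points are mean changes with the moderated SE from the fit over all probe sets, and triangles are the changes within the arrays of each number. The dashed line at 0.63 is the median of the receptor probe sets, and the dimmer probe sets of Eomes and Gata2 lie nearer to 0 than the brighter ones.

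In the fit over all 45037 probe sets 0 of the 14 passed, and 0 passed in all (0.00%). An unadjusted p of 0.05 or less was found for 2 of the 14, the brighter Eomes probe set (0.028) and that of Gsc (0.037), and for 6.49% of all probe sets. The groups did not overlap for 6 probe sets that read higher without LIF and 2 that read lower, patterns of 24.6% and 11.9% of all probe sets. In each of the 4 genes with 2 probe sets, the change of the pair differed by 0.35 to 0.69 on the log2 scale, and only for Cer1 did both members of the pair have groups apart.

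Members' signals covered a wide range, which the probe sets' own affinities also shape, so their order is not an order of transcript levels. On arrays 1 and 2 without LIF the brighter Eomes probe set stood at the 66.9 and 73.2 percentiles of probe sets, and with LIF at the 62.2 and 64.8 percentiles. Evx1 stayed between the 9.85 and 11.9 percentiles on all 4 arrays. Gsc stood at the 27.5 and 29.4 percentiles with LIF and at the 4.84 and 5.03 percentiles without LIF.

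The other genes of the pathway came from fixed lists. Of 24 tested components of the inducing pathways 0 passed in either direction, with a median log2 change of 0.18, and the groups did not overlap for 7 that read higher and 3 that read lower (27.3% and 15.2% of tested genes). The ligand Nodal read 2304 and 2200.4 with LIF, against 2074 and 3159 without it, and its co-receptor Tdgf1 read 15736 and 21224 with LIF, against 4789 and 8929 without it (log2 change -1.48, adjusted p = 0.13). Nodal was abundant in both groups with overlapping values, and Tdgf1 was lower on both arrays without LIF. Bmp4, a ligand that induces posterior mesoderm, read 965 and 1215 with LIF, against 111 and 240.1 without it (log2 change -2.73, adjusted p = 0.060). Lef1, a Wnt effector, read 350.4 and 100.5 with LIF, against 924 and 1283 without it (2.54, adjusted p = 0.14). Thus a ligand upstream of the streak was lower and a Wnt effector higher on both arrays without LIF, and neither passed with group as the only term. Fgf8, an Fgf ligand of the streak and the epiblast, read 4.1 and 6.9 with LIF, against 115 and 95.4 without it, above background only without LIF. Its log2 change was 4.30 (limma, adjusted p = 0.10), of a size that is not known, since the values with LIF lay below background. The gene passed the filter only through the arrays without LIF. Wnt3, the Wnt ligand that starts the streak, was below background on all 4 arrays, at 1.0 and 1.0 with LIF, against 25.9 and 2.3 without it.

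Among the other streak and early mesoderm factors, 11 of 15 genes beyond the members were tested and 0 passed, with a median log2 change of 0.83. The groups did not overlap for 4 of the 11 that read higher and 1 that read lower, Hand1 (-0.31, named after its value was seen), beside the 27.3% and 15.2% of tested genes. None of the 15 was above background on all 4 arrays, and 4 were never above it. T, the best known streak marker, was not analysed, since none of the probe sets carried its symbol alone. Tbx6, a T-box factor of the paraxial mesoderm, read 32 and 33.3 with LIF, against 45.6 and 26.9 without it. Snai1, a repressor of epithelial genes in cells that leave the epiblast, read 29.9 and 55.8 with LIF, against 64.0 and 82.6 without it (0.83, adjusted p = 0.65). Msgn1 of the presomitic mesoderm (1.31), Foxf1 of the lateral mesoderm (1.76) and the homeobox gene Hoxb1 (1.69) also had groups apart, with adjusted p of 0.50, 0.54 and 0.39. The highest of these signals were on array 1 without LIF, at 71.1 for Msgn1, 133 for Foxf1 and 344 for Hoxb1, the array with the highest background. That value of Msgn1 lay under the level of 80.0 of the array. Foxf1 changed by 3.43 within number 1 and 0.097 within number 2, and it was above background on 1 array only. It passed the filter only through the arrays without LIF.

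Genes of blood, vessel and heart mesoderm, the later relatives of Kdr and Gata2, gave 0 calls among 17 tested, with a median log2 change of 0.50. Tal1, a blood factor, read 21.3 and 48.9 with LIF, against 78.3 and 144 without it (1.72, adjusted p = 0.38). The groups of Runx1 (1.92) and Mef2c (1.37) also did not overlap (limma, adjusted p = 0.45 and 0.47). Runx1 changed by 3.48 within number 1 and by 0.36 within number 2. Tal1 and Mef2c were above background on 2 of the 4 arrays, and Runx1 on 3. Of the 17 tested the groups did not overlap for 4 that read higher and 2 that read lower, patterns of 27.3% and 15.2% of tested genes. The adhesion molecule Pecam1, which ES cells also carry, read 1204 and 1206 with LIF, against 564 and 914 without it (-0.75, adjusted p = 0.37). For a list of endothelial and blood cell markers 0 of 8 tested passed and 5 of 10 were never above background, among them Hbb-y, an embryonic globin (0.71, adjusted p = 0.78). Tek and Emcn of that list read 0.66 and 1.45 (adjusted p = 0.71 and 0.66). Emcn and Hbb-y passed the filter only through the arrays without LIF.

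Among organiser and endoderm genes beyond the members 0 of 14 tested passed, with a median of 0.11. Foxa2, a forkhead factor of the anterior streak, read 64.5 and 89.9 with LIF, against 26.7 and 185 without it, so the arrays without LIF enclosed those with LIF. Otx2 read 1935 and 1134 with LIF, against 1844 and 1861 without it (0.32, adjusted p = 0.73). The Nodal antagonists Lefty1 and Lefty2 differed in direction, with log2 changes of 0.65 and -1.34 (adjusted p = 0.26 and 0.18). Fzd8, a Wnt receptor, read 1.38 (limma, adjusted p = 0.35). The chemokine receptor Cxcr4 read 42.6 and 48.9 with LIF, against 60 and 2.2 without it, so the groups overlapped. Its log2 change of -1.99 (limma, adjusted p = 0.69) rested on array 2 without LIF and was 0.49 within number 1.

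Eomes, Lhx1, Cer1 and Gsc are also used in visceral endoderm, so its markers are given here. Summed over 20 genes, signals of primitive and visceral endoderm markers were 9174 and 20130 with LIF, against 10610 and 38892 without it, higher on the arrays numbered 2 in both groups, and 16 of 20 genes were above background on all 4 arrays. Sox17 read 80.6 and 598 with LIF, against 118 and 982 without it, and 0 of 19 tested genes of this list passed (median 0.63). Ttr read 5.06, Hnf4a 1.31, Dab2 1.26 and Col4a1 1.05 on the log2 change scale, with adjusted p of 0.24, 0.48, 0.60 and 0.55. These 4 had the smallest unadjusted p of the list, and the groups of Dab2 and Col4a1 overlapped. Among the 19 tested the groups did not overlap for 2 that read higher and 0 that read lower (27.3% and 15.2% of tested genes). Ttr was below background with LIF, at 2.8 and 31.4, so the size of its change is not known. It passed the filter only through the arrays without LIF. Both probe sets of Eomes, of Lhx1 and of Cer1 were also highest on array 2 without LIF, while that of Gsc was lowest there. The brighter probe sets of Lhx1 (40.3 and 41.2) and Cer1 (34.5 and 35.3) differed little between arrays 1 and 2 without LIF, below background on both. The part of endoderm cells in the members' values was not tested. Eomes and Gata2 are used in trophoblast too. The summed signal of 11 trophoblast markers was 3543 and 4878 with LIF, against 2004 and 3385 without it. Of 7 tested genes 1 passed, Tfap2c, which fell by 2.16 (limma, adjusted p = 0.027). The other 10 genes summed to 877 and 1094 with LIF, against 1297 and 2672 without it. On each array most of that sum came from the keratins Krt8 and Krt18. Krt8 read 246 and 358 with LIF, against 367 and 891 without it, and Krt18 264.5 and 377, against 523 and 1371. Among the 7 tested genes the groups did not overlap for 3 that read higher and 2 that read lower (27.3% and 15.2% of tested genes). Cdx2 was below background on all 4 arrays, at 4.3 and 4.8 with LIF, against 32.4 and 44 without it. Its groups did not overlap, and the size of its change is not known. Krt8, Krt18 and Plac1 read 0.95, 1.42 and 0.63 (adjusted p = 0.50, 0.32 and 0.65).

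**Figure D4:**
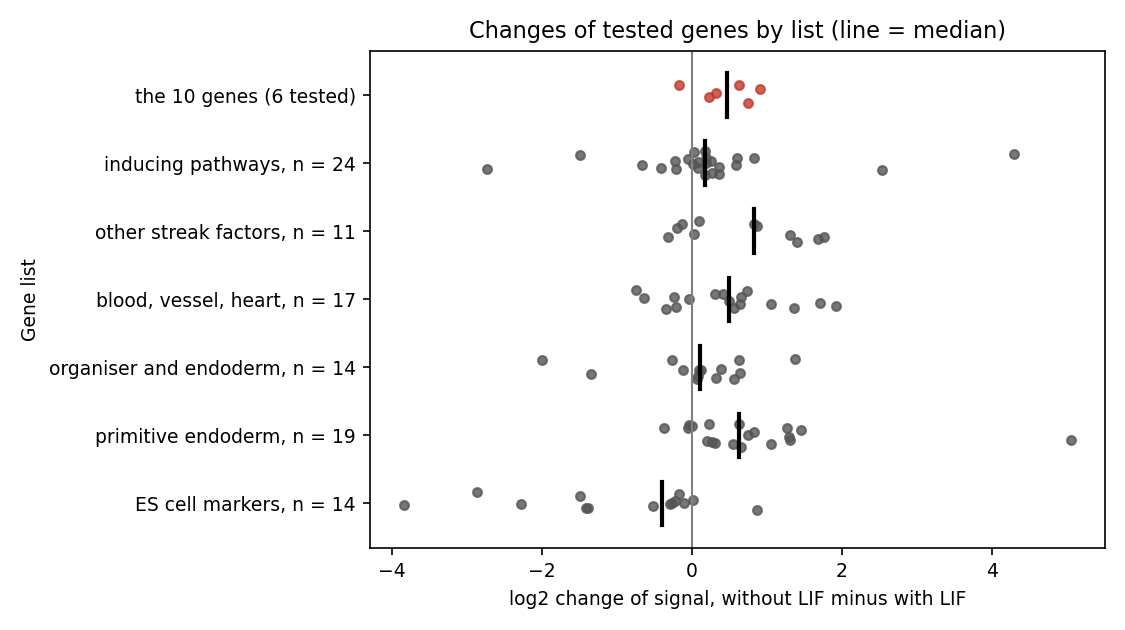
Log2 change of signal (without minus with LIF) of tested genes, with the 6 tested members in red and 6 fixed lists in grey; each point is a gene and each black line a list median. The members' median of 0.48 lies between that of the inducing pathways (0.18) and that of other streak factors (0.83), and ES cell markers have a median of -0.40.

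The remaining lists set the members in the state of the culture. Of the 14 ES cell markers, 2 fell, the Kruppel-like factor Klf4 (log2 change -3.84, adjusted p = 0.010) and the nuclear receptor Esrrb (-2.27, adjusted p = 0.031). Nanog (-1.41), Zfp42 (-1.38) and Tfcp2l1 (-2.86) had groups apart and adjusted p of 0.12, 0.084 and 0.12, and Pou5f1 had a log2 change of 0.02. Among the 14 the groups did not overlap for 9 that read lower and 1 that read higher (15.2% and 27.3% of tested genes). The latter was Lin28a (0.87, limma, adjusted p = 0.12), named after its value was seen. Neuroectoderm markers gave 0 calls among 10 tested (median 0.74), with log2 changes of 1.31 for Sox1, 1.38 for Sox3, -0.89 for Hesx1 and -0.91 for Tubb3 (adjusted p = 0.46, 0.20, 0.34 and 0.29). Fibroblast and smooth muscle markers gave 0 calls among 10 tested (median 0.18), with Dcn at 1.43, Acta2 at 1.00, Tagln at 1.61 and Vim at -0.86 (adjusted p = 0.24, 0.66, 0.46 and 0.24).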

How the data were processed

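Total RNA of 4 samples was labelled as biotinylated cRNA, per the labels' protocols. The deposited intensities were linear MAS5 signals (MAS5 is named in the submitters' processing notes, and the values are linear), with each array's trimmed mean at 499 to 500; the version and settings were not given in the sources used here. Of 45101 probe sets, 64 were controls, 34945 had 1 gene symbol in the platform annotation, 932 several and 9160 none. The 1 value at or below 0 was raised to the smallest positive value. For each gene the probe set brightest by mean log2 signal was used. Genes whose mean exceeded the 30th percentile of all non-control probe sets entered limma (version 3.58.1, R 4.3.3; two-sided, eBayes with trend) with LIF group as sole term and 2 residual degrees of freedom, with Benjamini-Hochberg adjustment over all genes tested. A fit over every probe set had no filter. The filter took the mean over both groups. Fgf8, Ttr, Foxf1, Emcn and Hbb-y passed it only through the arrays without LIF, and Cxcr4 only through those with LIF. Their mean in the other group lay under the filter, so their p-values only describe the values. The number of arrays limits the precision.

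The 10 genes, the lists, the rule for named genes and the tests were chosen with earlier results of these data known. Named were all members and up to 4 tested genes of each list with the smallest unadjusted p. T, Nodal, Wnt3, Bmp4, Fgf8, Foxa2, Sox17, Tbx6, Snai1, Otx2, Pou5f1, Nanog and Socs3 were also named. Cdx2, Hand1 and Lin28a were added after their values were seen. Alternatives varied the filter, pseudocount, normalization, variance model, probe set, number block, arrays and background. In simulated data of 14445 genes, 34 of 100 genes changed by 2 and 58 of 100 changed by 4 on the log2 scale were recovered. Promoters (250 bases before to 50 after a start site, of which the first 240 were searched) came from RefSeq, GRCm38.p6. Plots were made in Python 3.11.15 with matplotlib 3.10.9.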

Additional observations from a re-analysis of the deposited data

How the results depend on the processing

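The 6 tested members stayed without a call under every alternative in which they were tested, the 4 others did not pass without the filter, and of 74 recomputed member changes that could differ from the main value 70 kept their sign. The 4 that turned were Mixl1 on leaving out array 1 without LIF (0.38; range -0.71 to 0.38 with 1 array left out), Evx1 with quantile normalization (-0.037) and Mesp1 with quantile normalization (-0.088) and with a common median (-0.058). The cause was not tested. The number of genes called in limma, 21, was 41 with a filter at the 50th percentile, 51 with a pseudocount of 14.3, 10 with quantile normalization, 131 with a common median, 52 with robust eBayes, 12 with probe sets averaged per gene, 0 with eBayes without the trend (1589 at an unadjusted p of 0.05 or less) and 7 to 496 with 1 array left out. Members with groups apart numbered 7 (41.1% of all genes), but 3 with quantile normalization (38.4%), 3 with a common median (34.8%), 4 with the mean of probe sets (39.0%), and 8 to 9 with 1 array left out, where 66.2% to 76.1% of genes have groups apart. By their brightest probe sets 5 members were below background on all arrays, and 2 at the 75th percentile of the receptors. Probe sets called numbered 0 (2923 at an unadjusted p of 0.05 or less), 1 with quantile normalization and 0 to 0 with 1 array left out. Under a replicate block 975 of 14445 tested genes passed, 596 higher and 379 lower without LIF, as did 1685 probe sets. Of the 6 tested members 0 passed (limma with the block, adjusted p = 0.070 for Eomes). Of 24 tested genes of the inducing pathways 3 rose (Fgf8, Fgfr1 and Lef1) and 2 fell (Bmp4 and Tdgf1) under that block. Fgf8 had passed the filter only through the arrays without LIF. Of 11 other streak factors 1 rose (Hoxb1), and of 19 endoderm markers 5 rose, among them Ttr, let through the filter only by the arrays without LIF. Of 14 ES cell markers 1 rose and 7 fell, and of 10 neuroectoderm markers 3 rose and 2 fell. In trophoblast (7 tested) and in fibroblast and smooth muscle (10 tested) 2 rose and 1 fell each. In organiser and endoderm (14 tested) 1 rose and 1 fell. In the blood, vessel and heart list (17 tested) and the endothelial and blood cell list (8 tested) 0 rose and 1 fell each. Deviations of same-numbered arrays correlated at r = 0.29 over tested genes, and the labels do not say what a number stands for. Signals near background, with 2 arrays a group, limit what can be told of 8 of the 10 genes.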
